A study of Rattus norvegicus with 28 samples.

Results

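The comparison set endothelial cells of Lewis rat hearts 3 days after grafting into Lewis recipients (isografts, titled isograft_day3) against endothelial cells of normal Lewis hearts (titled isograft_control). Members were chosen by sample title: 3 arrays of day 3 isografts and 3 of normal hearts, 6 of the 28 arrays of the series. Every animal of these groups was male and of the inbred Lewis strain, with no transgene, drug or other agent named. The donor hearts had been placed in the neck of the recipient by a cuff technique, whereas the normal hearts had not been transplanted. Among the arrays there was no sham-operated group, so that the operation and the graft itself cannot be told apart. Hearts were minced, cells carrying CD45 were removed with antibody (clone Ox1) and magnetic beads, and cells carrying CD31 were then collected with antibody (clone 3A12). According to the series, the 3 arrays of each group are biological replicates. The age of the animals, and whether an array held cells of 1 heart or of several, are not given in the sources used here. Lewis isografts of days 2 and 4, DA allografts of day 3 in Lewis recipients, normal DA hearts (3 arrays each, endothelium) and leukocytes of allografts (4 arrays) served as references. The question is which genes of graft endothelium differ from normal after transplantation between animals of 1 strain, where donor and recipient share their transplantation antigens.

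Endothelial cells line the vessels of the heart and are the first donor cells that recipient blood meets. Injured or cytokine-exposed endothelium displays P-selectin and E-selectin on its surface, on which leukocytes roll. It then presents chemokines that arrest the leukocytes and displays Vcam1 and Icam1, to which their integrins bind. Much of this programme is transcribed through NF-kB, while cytokines of the IL-6 family act through the shared receptor chain Il6st (gp130) and the factor Stat3 to raise acute phase genes. In the heart most endothelial cells are capillary cells that take up fatty acids, whereas leukocytes leave the blood mainly in venules.

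Signals were deposited as log2 values per probe set, so that a difference of 1 is a 2-fold difference, and they carry no counting depth. Precision is limited by the number of arrays: over all genes, the day 3 difference had a median standard error (SE) of 0.165. Each SE pools the spread within groups over all 24 endothelial arrays of the series, not only over the arrays compared. Array medians lay between 6.54 and 6.59 in the 6 arrays, and arrays of a group correlated with r of 0.9875 to 0.9948 (isograft day 3) and 0.9863 to 0.9898 (Lewis normal) across genes, and genes are not independent replicates. The 17 measured endothelial markers had mean levels of 12.12, 11.98 and 11.88 in the Lewis arrays and 12.06, 11.9 and 11.94 in the isograft arrays. With limma 0 of them passed the test (3 at an unadjusted p under 0.05). These markers do not measure other cells in the preparations, whose markers are given below. Pecam1, which encodes the CD31 used for collection, read 11.94, 11.58 and 11.04 in Lewis hearts and 11.99, 11.43 and 11.43 in isografts (difference 0.10, SE 0.24). Ptprc, which encodes CD45, was higher in every isograft array at 6.58, 8.21 and 7.63 against 5.4, 5.29 and 5.68, a difference of 2.02 (SE 0.45, adjusted p = 0.0163), while the leukocyte arrays averaged 12.26. Its dimmer probe set differed by 0.46, and its call was lost without replicate 2 or 3 of the isografts or replicate 1 or 2 of the Lewis hearts. In such bulk samples fewer cells of a type and less RNA per cell cannot be told apart. Some arrays stood apart. Among isografts, replicate 2 had the highest mean of the pan-leukocyte (8.03), macrophage (8.94) and neutrophil (6.21) markers and replicate 1 the highest of the fibroblast markers (8.53). Among normal hearts, replicate 2 had the highest mean of the cardiomyocyte markers (7.77) and replicate 3 of the lymphatic ones (8.23).

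On day 3, 360 of 14217 genes (2.53%) passed limma's moderated test at a Benjamini-Hochberg adjusted p under 0.05. Of these, 256 (1.8% of all genes) were higher and 104 (0.732%) were lower in the isografts. The higher genes had a median difference of 1.42 and the lower ones of -0.77, against 0.0 over all genes. At least 2-fold differences were seen in 214 of the called genes (1.51% of all genes), 182 higher and 32 lower, and at least 4-fold ones in 69 and 6 respectively. The 3 isograft arrays did not overlap with the 3 Lewis arrays in 256 of the 256 higher genes and in 103 of the 104 lower genes, where 2989 of all genes (21%) did not overlap. The calls were made from the same arrays, so this separation follows largely from the call and is no further evidence. Leaving out 1 array of the 6 gave 150 (without isograft replicate 2) to 300 calls (without isograft replicate 1).

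Among called genes, the 16 highest differences belonged to Gpnmb (4.98), Selp (4.23), Ccl6 (4.12), Mpeg1 (3.99), Lyz2 (3.8), Ptgs2 (3.73), Sele (3.68), Fcgr2b (3.67), Clec4a3 (3.62), Adamts4 (3.61), Cxcl11 (3.38), Serpina3n (3.31), Abca1 (3.28), Spp1 (3.25), Clec10a (3.24) and Cxcl2 (3.17). They include both endothelial selectins, 3 chemokines, the inducible prostaglandin synthase Ptgs2 and a set of genes known from macrophages. Of these 16 genes, 15 kept the call without any 1 of the 6 arrays. Cxcl11 lost it without isograft replicate 3 or Lewis replicate 1. The largest falls were those of Myh6 (-2.4), Mb (-2.12), Scn7a (-2.12), Cox8b (-2.03), Tnni3 (-2.02), Cyp26b1 (-2.01), Aqp7 (-1.82), Tnnt2 (-1.81), Myl2 (-1.79), Fabp3 (-1.61), Qpct (-1.61), Tnnc1 (-1.57), Rp1l1 (-1.48) and Serpinb7 (-1.41), which are led by genes of heart muscle.

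**Figure D1:**
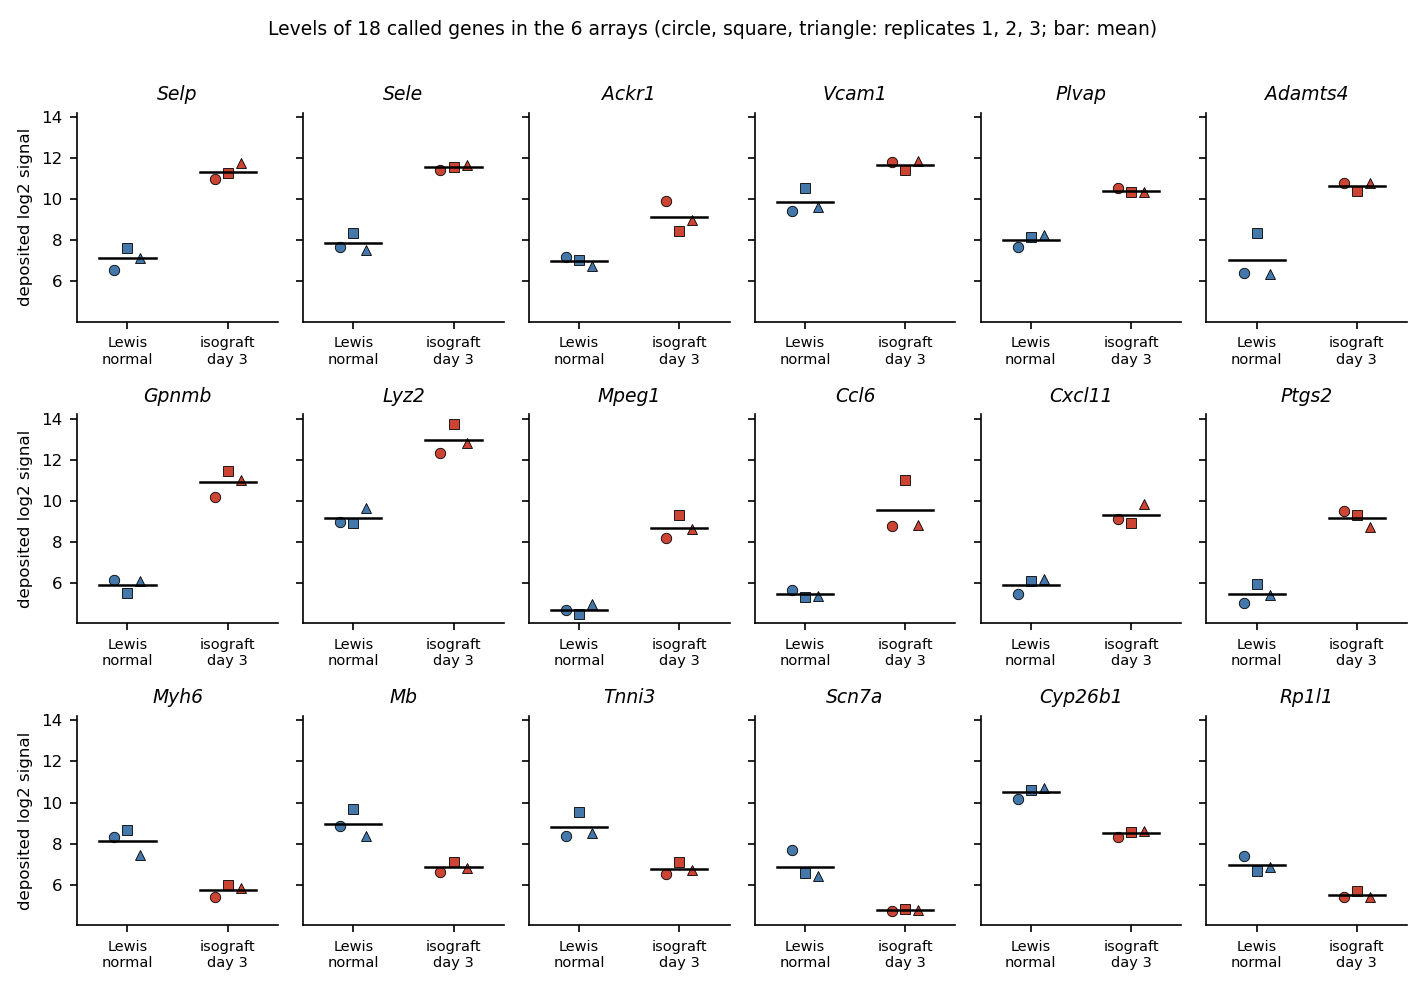
Deposited log2 signals of 18 called genes in the 6 arrays; blue symbols are Lewis normal hearts, red symbols day 3 isografts, circle, square and triangle are replicates 1, 2 and 3, and bars are group means. Selp lay between 6.58 and 7.65 in normal hearts and between 11 and 11.75 in isografts, and in each of the 18 panels the 3 red symbols lie wholly above or wholly below the blue ones. The 18 genes were called from these same arrays.

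Both selectins had the largest differences among the higher genes that read at least 2-fold lower in leukocytes than in isografts. Of 16 measured genes of leukocyte adhesion 4 rose and 0 fell, with a median difference of 0.11. Selp, the P-selectin on which leukocytes begin to roll, read 6.58, 7.65 and 7.14 in Lewis hearts and 11, 11.3 and 11.75 in isografts. No isograft array came near the normal range, and the difference of 4.23 (SE 0.44, adjusted p = 9.32e-06) is 18.7-fold. A second, dim Selp probe set differed by 0.37. Sele, the E-selectin that endothelium makes when activated, read 7.69, 8.38 and 7.55 in normal hearts and 11.45, 11.56 and 11.66 in isografts. Its 3 isograft values were close together, and it rose by 3.68 (SE 0.38, adjusted p = 9.32e-06). Ackr1, a venular receptor that carries chemokines across the endothelium, rose from 7.18, 7.06 and 6.76 to 9.93, 8.45 and 9, with replicate 1 the highest, a difference of 2.13 (SE 0.30, adjusted p = 0.00024). Vcam1, the ligand of the integrin VLA-4, went from 9.44, 10.58 and 9.6 to 11.8, 11.44 and 11.85, where Lewis replicate 2 was the highest normal array, and differed by 1.83 (SE 0.32, adjusted p = 0.00238). These 4 genes kept their calls without any 1 of the 6 arrays. Icam1, the ligand of LFA-1, was not called: isografts read 10.71, 11.13 and 11.43, but the normal hearts spread over 8.75, 10.46 and 8.91, with Lewis replicate 2 the highest (difference 1.72, SE 0.55, adjusted p = 0.121). Selp, Ackr1 and Vcam1 were also the 3 genes that rose among 8 markers of venous and venular endothelium, whose median difference was 0.54. Of 8 arterial markers 0 rose and 1 fell, with a median of -0.13. Leukocyte arrays read 6.85 for Selp, 7.71 for Sele and 7.06 for Ackr1, below every isograft array.

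Chemokines draw leukocytes along and through the vessel wall. Of 15 CC chemokines 5 rose and 0 fell (median difference 0.72), and of 14 CXC and CX3C chemokines 3 rose and 0 fell (median 0.4). Calls came to 33.3% and 21.4%, against 2.53% of all genes. Ccl6 read 5.64, 5.32 and 5.38 in Lewis hearts and 8.8, 11.04 and 8.85 in isografts, with replicate 2 far above the other isografts, a difference of 4.12 (SE 0.54, adjusted p = 0.00013). Ccl7 and Ccl2 encode attractants of monocytes. Ccl7 rose from 5.58, 6.81 and 5.94 to 9.04, 9.34 and 9.18 (difference 3.08, SE 0.55, adjusted p = 0.00296). Ccl2 rose from 8.17, 9.46 and 8.01 to 10.83, 11.23 and 11.01 (difference 2.48, SE 0.48, adjusted p = 0.00536), and for both Lewis replicate 2 was the highest normal array. Ccl3 and Ccl4, attractants of macrophages and T cells, rose by 1.63 and 1.61. Both lost their calls without replicate 2 or 3 of the isografts or any 1 of the 3 Lewis arrays. The neutrophil attractant Cxcl2 read 7.91, 8.84 and 7.67 in normal hearts and 10.38, 12.19 and 11.37 in isografts, where replicate 1 was the lowest (difference 3.17, SE 0.55, adjusted p = 0.00228). Cxcl11, a ligand of Cxcr3, a chemokine receptor of T cells, read 5.47, 6.1 and 6.19 in normal hearts and 9.11, 8.94 and 9.83 in isografts. Groups were well apart for it, with a difference of 3.38 (SE 0.70, adjusted p = 0.0092). The other ligands of Cxcr3, Cxcl10 (difference 1.92, SE 0.70, adjusted p = 0.195) and Cxcl9 (1.34, SE 0.66, adjusted p = 0.439), were not called, and Lewis replicate 2 was the highest normal array for both. Pf4, a chemokine stored in platelets, rose by 1.72 (SE 0.43, adjusted p = 0.0345) and lost its call without isograft replicate 2 or 3 or any 1 of the Lewis arrays. For each of the 8 called chemokines the leukocyte mean lay above all 3 isograft arrays, with 12.82 for Ccl2 and 12.61 for Ccl3 as examples.

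The inflammatory genes grouped under NF-kB rose in 4 of 24 cases and fell in 0, with a median difference of 0.41. That is 16.7% called, against 2.53% of all genes. Ptgs2, which makes the precursor of inflammatory prostaglandins, went from 5.01, 5.98 and 5.4 to 9.51, 9.33 and 8.74, a gap of 3.73 (SE 0.64, adjusted p = 0.00226) with no overlap of the arrays. Its call held without any 1 array. Il1b, the cytokine interleukin-1 beta, read 5.92, 6.87 and 6.9 and 8.34, 10.74 and 9.69, highest in isograft replicate 2, and differed by 3.03 (SE 0.70, adjusted p = 0.023). Il18 differed by 1.82 (SE 0.47, adjusted p = 0.0412), and its isograft values of 6.63, 8.3 and 6.87 were likewise highest in replicate 2. Tnfaip3 (A20), which ends NF-kB signalling, read 10.63, 11.22 and 10.64 in normal hearts and 12, 12.51 and 12.55 in isografts, a difference of 1.52 (SE 0.36, adjusted p = 0.0231). Il1b, Il18 and Tnfaip3 each lost the call without isograft replicate 2, without isograft replicate 3 or without Lewis replicate 1, and without 1 or both of the other Lewis arrays. Of the 24 genes 1 was called without isograft replicate 2, isograft replicate 3 or Lewis replicate 1, and 4 without isograft replicate 1. Leukocyte means were 10.77 for Ptgs2, 13.56 for Il1b and 12.91 for Tnfaip3, each above the isografts.

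Promoters of 4 of the called genes above are shown. They were picked because each holds a match to the NF-kB motif, so they do not stand for the called genes as a whole. For Ptgs2, Il1b and Il18, the other calls of the NF-kB list, no match was found, and a gene without a promoter entry would show none. The promoters shown come from RefSeq on the rat build GRCr8. They give the 250 bases before the start, read 5′ to 3′ on the strand of the gene, with the matches in capitals. Vcam1 lies on the minus strand at chr2:206742784-206743033, Cxcl2 on the minus strand at chr14:17467256-17467505, Cxcl11 on the plus strand at chr14:15973478-15973727 and Tnfaip3 on the minus strand at chr1:15543980-15544229.
Vcam1: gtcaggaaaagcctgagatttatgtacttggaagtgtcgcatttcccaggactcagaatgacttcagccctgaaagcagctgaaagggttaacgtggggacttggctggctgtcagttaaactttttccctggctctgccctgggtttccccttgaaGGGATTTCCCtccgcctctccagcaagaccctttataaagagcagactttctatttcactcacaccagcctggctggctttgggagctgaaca
Cxcl2: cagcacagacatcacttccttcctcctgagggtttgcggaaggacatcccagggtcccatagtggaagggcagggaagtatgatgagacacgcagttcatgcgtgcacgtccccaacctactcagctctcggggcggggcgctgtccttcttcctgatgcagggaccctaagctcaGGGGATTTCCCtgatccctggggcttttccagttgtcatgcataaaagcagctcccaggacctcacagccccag
Cxcl11: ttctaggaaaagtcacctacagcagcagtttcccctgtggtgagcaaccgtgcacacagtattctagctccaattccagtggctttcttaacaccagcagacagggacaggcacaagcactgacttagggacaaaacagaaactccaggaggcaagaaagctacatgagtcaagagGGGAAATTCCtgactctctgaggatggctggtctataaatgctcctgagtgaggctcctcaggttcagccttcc
Tnfaip3: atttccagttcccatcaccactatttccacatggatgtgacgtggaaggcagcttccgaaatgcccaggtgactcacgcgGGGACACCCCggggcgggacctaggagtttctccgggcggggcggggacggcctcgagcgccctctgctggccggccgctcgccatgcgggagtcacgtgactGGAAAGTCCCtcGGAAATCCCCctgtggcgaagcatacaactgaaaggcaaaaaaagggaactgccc
In Cxcl2 a pair of overlapping matches makes up the stretch in capitals. Both strands were searched. Cxcl11 and Tnfaip3 also hold the AP-1 letters TGANTCA, 5′ of their first NF-kB match and with no overlap, and Cxcl11 holds the STAT letters TTCNNNGAA at the far 5′ end. Over the measured genes with an entry (11733 of 14217), 8.33% of the windows held an NF-kB match, against 13% of 193 windows of higher genes and 8.33% of 84 windows of lower genes. For AP-1 the shares were 4.84%, 9.84% and 3.57%. These shares are descriptions without a test, and a match is not a measured binding site. Selp, Ccl2 and Ackr1 are named only.

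Genes of the IL-6 family response rose in 8 of 21 cases and fell in 0, with a median difference of 0.59. That is 38.1% called, against 2.53% of all genes. Serpina3n, an acute phase inhibitor of serine proteases, went from 4.84, 5.05 and 4.83 to 8.51, 7.74 and 8.4 (difference 3.31, SE 0.44, adjusted p = 0.00013), which is 9.92-fold. Leukocyte arrays read 5.08 for it, near the normal hearts. Reg3b and Reg3g encode secreted lectins of the acute phase. Reg3b read 8.59, 9.1 and 9.3 in normal hearts and 12.08, 12.16 and 11.4 in isografts (difference 2.89, SE 0.52, adjusted p = 0.00298). Reg3g read 7.65, 8.85 and 8.78 and 11.57, 11.61 and 10.95 (difference 2.95, SE 0.64, adjusted p = 0.0139), and lost its call without isograft replicate 2 or Lewis replicate 1. Both lectins were lowest in isograft replicate 3 and lower in the leukocytes (6.58 and 5.58) than in any isograft. Fgl2, a membrane prothrombinase, rose by 2.52 (SE 0.28, adjusted p = 1.98e-05), from 9.9, 10.11 and 10.4 to 12.42, 12.7 and 12.83, and its 4 probe sets agreed within 2.24 to 2.69. Timp1, an inhibitor of metalloproteases, read 7.49, 9.31 and 7.83 and 10.87, 10.72 and 10.85, with Lewis replicate 2 the highest normal array (difference 2.6, SE 0.52, adjusted p = 0.00712), and lost its call without Lewis replicate 1. The 3 remaining calls, named after their values were seen, were the copper carrier Cp (2.01, adjusted p = 0.000117), the feedback inhibitor Socs3 (0.96, adjusted p = 0.0405) and the receptor chain Il6st itself (0.85, adjusted p = 0.0029). Cp and Il6st were called without any 1 array (Il6st not with its most variable probe set), whereas 5 of the 6 arrays left out in turn removed the Socs3 call. Between 5 (without Lewis replicate 1) and 8 of the 21 genes were called with 1 array left out.

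For 2 of these genes the promoters are shown because they hold the STAT letters TTCNNNGAA, which read alike on both strands and are in capitals here. Serpina3n lies on the plus strand at chr6:129088142-129088391 and Reg3b on the plus strand at chr4:112419526-112419775.
Serpina3n: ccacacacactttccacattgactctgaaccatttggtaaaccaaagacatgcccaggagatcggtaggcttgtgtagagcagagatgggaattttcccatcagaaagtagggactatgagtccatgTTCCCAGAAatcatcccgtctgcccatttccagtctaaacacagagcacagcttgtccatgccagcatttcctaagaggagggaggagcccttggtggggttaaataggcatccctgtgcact
Reg3b: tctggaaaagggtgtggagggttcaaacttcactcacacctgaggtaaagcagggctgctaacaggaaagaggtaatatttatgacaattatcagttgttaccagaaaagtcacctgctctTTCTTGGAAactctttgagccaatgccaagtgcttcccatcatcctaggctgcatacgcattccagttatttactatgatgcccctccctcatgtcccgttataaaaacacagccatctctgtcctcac
Neither match overlaps an NF-kB or AP-1 match. The letters stood in 6.13% of the windows of all measured genes, in 5.7% of those of higher genes and in 9.52% of those of lower genes, so that the share among higher genes was the lowest of the 3.

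Complement genes rose in 6 of 14 cases (42.9%, against 2.53% of all genes called) and fell in 0, with a median difference of 1.27. Both sides of the cascade were among them. C1qa and C1qc, chains of the first component, went up by 2.18 (SE 0.33, adjusted p = 0.000628) and 1.48 (SE 0.35, adjusted p = 0.027). C1qa read 5.92, 6.67 and 6.41 in normal hearts and 8.09, 9.08 and 8.36 in isografts. Cfd, the protease factor D of the alternative pathway, read 5.37, 5.37 and 5.47 and 7.02, 8.76 and 7.1, highest in replicate 2, and lost its call without that array. C5ar1, the receptor of the fragment C5a, rose from 5.91, 5.71 and 5.73 to 7.83, 8.51 and 8.14 (difference 2.38, SE 0.32, adjusted p = 0.000135). Serping1, the C1 inhibitor, rose from 8.29, 8.23 and 8.48 to 10.17, 10.06 and 10.14 (difference 1.79, SE 0.32, adjusted p = 0.0033). Cd55, which breaks up convertases on the cell surface and is named after its values were seen, rose by 1.4 (SE 0.33, adjusted p = 0.0266). Leukocyte means were far above the isografts for C1qa (12.89), Cfd (11.8) and C5ar1 (12.1), and below them for Cd55 (8.42) and Serping1 (9.6). C1qc lost its call without any 1 of the 6 arrays and Cd55 without 5 of them left out in turn, and 3 of the 14 genes were called without isograft replicate 2.

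Calls among coagulation and vessel tone genes came to 11.1% and 6.25%, against 2.53% of all genes. Of 18 coagulation and fibrinolysis genes 2 rose and 0 fell (median difference 0.47). Procr, the endothelial receptor of anticoagulant protein C, read 10.05, 10.96 and 10.5 in normal hearts and 11.62, 11.76 and 11.87 in isografts, a difference of 1.25 (SE 0.27, adjusted p = 0.0121). F5, the cofactor of prothrombin activation, rose by 1.37 (SE 0.32, adjusted p = 0.0211). Leaving out isograft replicate 2 or Lewis replicate 1 removed both calls. Of 16 vascular tone genes only the prostaglandin synthase Ptgs1 was called, higher by 0.97 (SE 0.20, adjusted p = 0.00822), and not without isograft replicate 2. Its dimmer probe set differed by 0.04. Endothelin-1 (Edn1), the vasoconstrictor, differed by 0.84 (SE 0.30, adjusted p = 0.183).

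**Figure D2:**
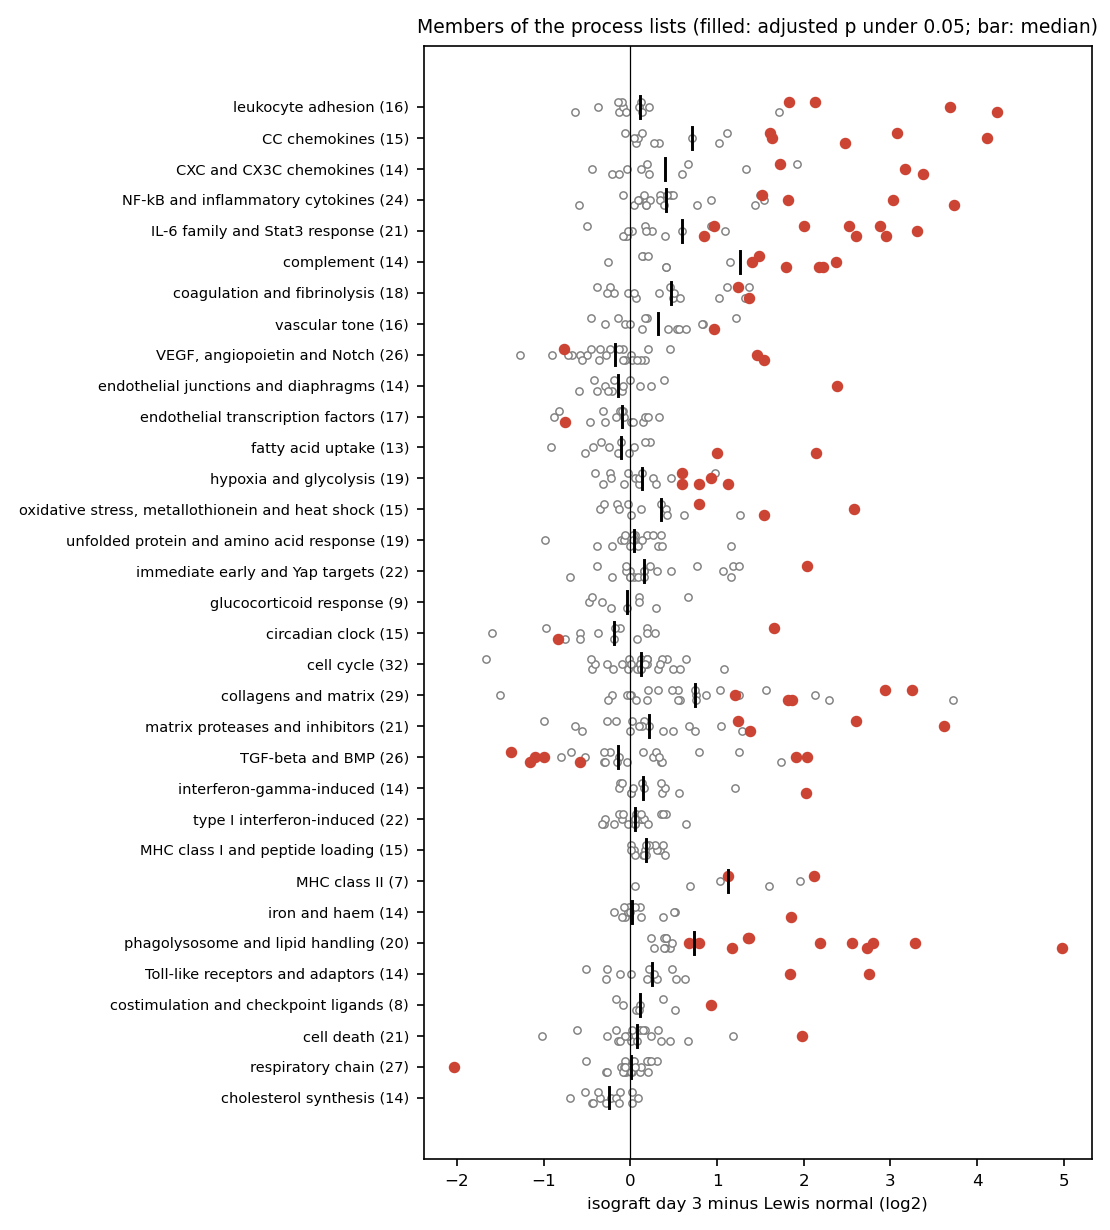
Isograft day 3 minus Lewis normal in log2 for each measured member of the 33 process lists (number measured in brackets); filled red points passed an adjusted p of 0.05, open points did not, and black bars are medians. Filled points lie to the right of 0 except for 1 in VEGF, angiopoietin and Notch, 1 in endothelial transcription factors, 1 in circadian clock, 5 in TGF-beta and BMP and 1 in respiratory chain.

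The lists of junction, vessel growth, transcription factor and fatty acid uptake genes held 5.88% to 15.4% calls, against 2.53% of all genes. Plvap, which forms the diaphragms of fenestrae and caveolae, rose from 7.68, 8.17 and 8.29 to 10.57, 10.35 and 10.35. Isograft arrays lay close together, all far above the normal ones, and the difference was 2.38 (SE 0.26, adjusted p = 1.87e-05). It was the only call among 14 junction and diaphragm genes, whose median was -0.14, and the call held without any 1 array. Of 26 genes of VEGF, angiopoietin and Notch signalling 2 rose and 1 fell (median -0.18). Angpt2, the antagonist of the receptor Tek that loosens vessels, rose from 9.57, 9.52 and 9.58 to 10.65, 11.18 and 11.24 (difference 1.47, SE 0.18, adjusted p = 7.05e-05). Pgf, a ligand of the receptor Flt1, rose by 1.54 (SE 0.41, adjusted p = 0.0463), a call lost without any 1 of the 6 arrays. Dll4, the Notch ligand of tip and arterial cells, read 11.17, 11.39 and 10.54 in normal hearts and 10.24, 10.3 and 10.28 in isografts and fell by 0.76 (SE 0.19, adjusted p = 0.0336), but lost its call without 5 of the 6 arrays left out in turn, with the compared arrays alone and with either other choice of probe set. The VEGF receptor Kdr was not called at -0.50 (SE 0.18, adjusted p = 0.179), nor was Esm1, a tip cell gene, at -1.28 (SE 0.45, adjusted p = 0.174). Among 17 endothelial transcription factors Mef2c fell by 0.76 (SE 0.15, adjusted p = 0.00827), lost without isograft replicate 2 or 3 or Lewis replicate 1. Fatty acid uptake genes rose in 2 of 13 cases (median -0.11). Angptl4, an inhibitor of lipoprotein lipase, read 6.91, 6.85 and 6.57 in normal hearts and 8.84, 8.93 and 9 in isografts (difference 2.14, SE 0.45, adjusted p = 0.01). Scarb1, a receptor of high density lipoprotein, rose by 1 (SE 0.17, adjusted p = 0.00195). The lipase anchor Gpihbp1 did not pass at -0.92 (SE 0.33, adjusted p = 0.197).

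TGF-beta and BMP signalling gave the list with most falls outside heart muscle. Of 26 genes 2 rose and 5 fell, with a median of -0.15 (0.01 with DA and Lewis normal arrays together as control). That is 26.9% called, against 2.53% of all genes. Inhba, a chain of activin A, rose from 6.97, 8.22 and 7.4 to 10.06, 9.3 and 9.33 (difference 2.04, SE 0.42, adjusted p = 0.00971), and was not called without isograft replicate 1 or Lewis replicate 1. Tgfbi, a matrix protein induced by TGF-beta, rose by 1.92 (SE 0.33, adjusted p = 0.00244), and its leukocyte mean was 12.83 against 8.47, 9.01 and 8.08 in isografts. Smad7, an inhibitor of the receptors, read 10.13, 10.19 and 9.42 in normal hearts and 8.89, 8.44 and 8.29 in isografts. No array overlapped, and it fell by 1.37 (SE 0.27, adjusted p = 0.00573), with the call kept without any 1 array but lost with a dimmer, more variable probe set that differed by -1.3. Its dimmest probe set differed by -0.28. The other 4 falls belonged to the BMP branch and are named after their values were seen. They were the signal carrier Smad9 (-1.16, adjusted p = 0.00296), the receptor Bmpr2 (-1.1, adjusted p = 0.0453) and the target genes Id1 (-1, adjusted p = 0.0289) and Id3 (-0.58, adjusted p = 0.0281). Smad9 was called without any 1 array, although its dimmer probe set differed by -0.09. Bmpr2 lost its call without 5 of the 6 arrays left out in turn, after renewed quantile normalization and with the mean of its probe sets, of which the dimmer differed by -0.02. Id1 lost it without 4 of the arrays, and Id3 without 3 of them and with the compared arrays alone. Between 2 and 5 genes of the list fell when 1 array was left out, with 2 without isograft replicate 2, isograft replicate 3 or Lewis replicate 2. The ligand Bmp4 read 8.06, 8.44 and 7.9 and 9.54, 9.67 and 10.4 and missed the threshold at 1.74 (SE 0.47, adjusted p = 0.0521), but passed it in 9 of 17 alternative settings.

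Matrix genes rose in 5 of 29 cases (17.2%, against 2.53% of all genes called) and fell in 0, with a median difference of 0.75. Spp1 (osteopontin) rose from 6.84, 6.56 and 7.76 to 9.68, 10.9 and 10.32 (difference 3.25, SE 0.62, adjusted p = 0.00482), and the leukocyte mean was 13. Tnc, a matrix protein of wounds, read 4.27, 4.18 and 4.59 and 8.23, 6.9 and 6.72, with isograft replicate 1 the highest (difference 2.94, SE 0.72, adjusted p = 0.0326), and lost its call without any 1 of the 6 arrays. The remaining 3 calls, named after their values were seen, were the basement membrane collagen Col18a1 (1.86, adjusted p = 0.000664), the proteoglycan Vcan (1.82, adjusted p = 0.0307) and fibronectin Fn1 (1.2, adjusted p = 0.0471). Col18a1 kept its call without any 1 array, Vcan lost it without 5 of the 6 left out in turn and Fn1 without each of them. The fibrillar collagen Col1a1 was not called. It read 6.24, 6.1 and 7.02 in normal hearts and 10.6, 7.79 and 7.85 in isografts, where replicate 1 stood far above the others (difference 2.3, SE 1.17, adjusted p = 0.454). Postn, a matrix protein of activated fibroblasts, followed the same order at 9.84, 7.59 and 7.63 against 4.64, 4.18 and 5.07 (difference 3.72, SE 1.03, adjusted p = 0.0608). Postn passed in 7 of 17 alternative settings. The 15 fibroblast markers, of which Col1a1 and Postn are members, had means of 8.53, 7.45 and 7.31 in the isograft arrays and 6.98, 7.01 and 7.58 in the Lewis arrays. Groups overlapped, the median difference was 0.22, and with limma 0 of the 15 passed (3 at an unadjusted p under 0.05). The part of such cells in the matrix values was not tested. Among 21 matrix proteases and inhibitors 4 rose and 0 fell (median 0.21). Adamts4, which cuts proteoglycans, rose from 6.39, 8.37 and 6.36 to 10.78, 10.39 and 10.79 and kept its call without any 1 array (difference 3.61, SE 0.59, adjusted p = 0.00137). Mmp14 and the cathepsin Ctsk rose by 1.38 (adjusted p = 0.0398) and 1.24 (adjusted p = 0.027), and both calls were lost without any 1 of the 6 arrays. Timp1, described above, was the fourth.

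Metabolism and stress lists held from 0% to 26.3% calls, against 2.53% of all genes. In hypoxia and glycolysis 5 of 19 genes rose and 0 fell (median 0.13). Pgk1 and Pgam1, enzymes of glycolysis, rose by 0.94 (SE 0.18, adjusted p = 0.00476) and 0.60 (SE 0.11, adjusted p = 0.00517), small steps that held without any 1 array. Pgam1 read 11.39, 11.37 and 11.33 and 11.96, 12.05 and 11.86, with little spread in either group. Hif1a, the oxygen-sensed factor, rose by 0.79 (adjusted p = 0.0375), the lactate carrier Slc16a3 by 1.12 (adjusted p = 0.037) and the glycolytic Eno1, named after its value was seen, by 0.59 (adjusted p = 0.041). Hif1a and Eno1 each lost the call without any 1 of the 6 arrays, and Slc16a3 without 5 of them left out in turn. In oxidative stress 3 of 15 rose. The metal-binding Mt2A went from 8.26, 9.32 and 8.75 to 11.46, 11.14 and 11.48 (difference 2.58, SE 0.44, adjusted p = 0.00191). Hmox1, which breaks down haem, rose by 1.54 (adjusted p = 0.0403) and the peroxidase Gpx1 by 0.79 (adjusted p = 0.00996). Hmox1 lost its call without any 1 array and Gpx1 without isograft replicate 2 or Lewis replicate 3. Myc was the only call among 22 immediate early and Yap target genes, from 8.77, 9.03 and 7.91 to 11.04, 10.15 and 10.63 (difference 2.04, SE 0.36, adjusted p = 0.00239). Among 15 clock genes Nfil3 rose by 1.66 (adjusted p = 0.0349) and Cry2 fell by 0.84 (adjusted p = 0.0301), and of the 6 arrays left out in turn, 5 removed the Nfil3 call and 4 the Cry2 call. With limma 0 were called among 32 cell cycle genes (median 0.12, 2 at an unadjusted p under 0.05), 19 genes of the unfolded protein response (0.05, 2), 9 glucocorticoid-induced genes (-0.04, 1) and 14 of cholesterol synthesis (-0.25, 1). Of 21 cell death genes Bcl2a1, which blocks apoptosis in blood cells, rose by 1.98 (adjusted p = 0.046), with a leukocyte mean of 12.74, and lost its call without 5 of the 6 arrays. Ccnd1, the G1 cyclin, read 11.86, 11.72 and 11.42 in normal hearts and 10.7, 9.81 and 9.49 in isografts without passing (difference -1.67, SE 0.50, adjusted p = 0.0884).

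Lists of antigen presentation and interferon genes differed in their calls, from 0% to 28.6% of members, against 2.53% of all genes. Of 14 interferon-gamma-induced genes only Ubd, a ubiquitin-like modifier, rose, from 7.47, 7.98 and 7.63 to 9.65, 9.77 and 9.75 (difference 2.02, SE 0.51, adjusted p = 0.0372). It lost its call without any 1 of the 6 arrays and when arrays were centred on their medians, and differed by 0.60 without a call when the DA normal arrays joined the controls. Type I interferon genes had 0 calls of 22 with limma, 0 at an unadjusted p under 0.05 and a median of 0.05. For MHC class I and peptide loading 0 of 15 were called, again 0 at an unadjusted p, although the differences were above 0 in 15 of 15 and had a median of 0.18. Of 7 MHC class II genes 2 rose, with a median of 1.13. RT1-Da, an alpha chain, read 7.21, 7.33 and 7.18 in normal hearts and 8.55, 10.23 and 9.3 in isografts, highest in replicate 2 (difference 2.12, SE 0.45, adjusted p = 0.0112). RT1-DMb, a chain of the peptide exchanger, rose by 1.13 (SE 0.27, adjusted p = 0.027). Without isograft replicate 2 or Lewis replicate 1 neither was called, and RT1-DMb lost its call without 5 of the 6 arrays left out in turn. The leukocyte means were 14.21 and 12.93. Of 8 costimulation and checkpoint ligands the checkpoint protein gene Vsir rose by 0.93 (SE 0.18, adjusted p = 0.0066), a call lost without Lewis replicate 2.

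Macrophage genes had the largest share of calls among the lists. Of 16 macrophage markers 14 rose (87.5%, against 2.53% of all genes called) and 0 fell, with a median difference of 2.18. Their mean was 5.85, 6.09 and 6.21 in the Lewis arrays and 7.86, 8.94 and 8.23 in the isograft arrays, so that every isograft array stood above every normal one. Without isograft replicate 2 the count was 9, and without any other array it was 10 to 13. Gpnmb, a lysosomal glycoprotein of lipid-laden macrophages, read 6.15, 5.54 and 6.09 and 10.2, 11.46 and 11.04, the largest difference at 4.98 (SE 0.48, adjusted p = 5.8e-06), or 31.4-fold. Lyz2, the lysozyme of myeloid cells, read 8.97, 8.94 and 9.63 and 12.35, 13.76 and 12.84, and Mpeg1, which encodes the pore protein perforin-2, 4.67, 4.5 and 4.96 and 8.17, 9.31 and 8.61. For both, isograft replicate 2 was the highest and the groups lay far apart. Clec10a and Mrc1, lectins of tissue macrophages, rose by 3.24 (SE 0.36) and 3.09 (SE 0.52). Cd14, the endotoxin co-receptor, rose by 2.75 (SE 0.34, adjusted p = 7.05e-05), and with Tlr2, the receptor of bacterial lipoproteins (1.84, SE 0.25, adjusted p = 0.000204), made up the 2 calls among 14 Toll-like receptor genes. Cd163, the haemoglobin scavenger receptor of macrophages and the only call among 14 iron and haem genes, rose by 1.85 (adjusted p = 0.0462), and 5 of the 6 arrays left out in turn removed that call. Fcgr2b, an inhibitory antibody receptor, read 4.26, 4.42 and 3.79 and 7.31, 9.48 and 6.69, with replicate 2 again far above the others. Among genes of the phagolysosome and lipid handling 11 of 20 rose, and the difference was above 0 in 20 of 20 (median 0.73). Abca1, the exporter of cholesterol, went from 7.21, 6.6 and 7.18 to 10.22, 10.16 and 10.46 (difference 3.28, SE 0.34, adjusted p = 1.04e-05), with nearly equal isograft arrays. The lysosomal proteases Ctss and Lgmn rose by 2.8 and 2.74 and the galectin Lgals3 by 2.55. Lgmn's second probe set, which was dim, differed by -0.03.

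Markers of other blood cells gave smaller counts. Calls came to 23.5% of pan-leukocyte, 45.5% of monocyte and 6.67% of T cell genes, against 2.53% of all genes. Of 17 pan-leukocyte genes 4 rose (median 0.58), namely Cd53 (2.77, SE 0.46, adjusted p = 0.00181), Ptprc, the integrin chain Itgb2 (1.97, SE 0.38, adjusted p = 0.00529) and Laptm5, a lysosomal protein of blood cells named after its value was seen (1.07, adjusted p = 0.0398). Laptm5 lost its call without 4 of the 6 arrays left out in turn. Without isograft replicate 2 the count was 1, and without isograft replicate 1 it was 6. Of 11 monocyte genes 5 rose (median 1.2), with Fcer1g and Tyrobp, signalling partners of activating receptors, at 2.99 and 2.53. With limma 0 of 10 neutrophil genes were called (1 at an unadjusted p under 0.05), although S100a9 read 5.61, 8.63 and 6.62 in isografts against 4.93, 4.78 and 4.96 in normal hearts (difference 2.06, SE 0.90, adjusted p = 0.34). Of 15 T cell genes 1 rose, the kinase Lck (0.82, SE 0.20, adjusted p = 0.0313), and this call was lost without 5 of the 6 arrays left out in turn. Among 12 cytotoxic lymphocyte, 7 B cell, 8 mast cell and 6 erythroid genes limma called 0 (0 at an unadjusted p under 0.05), with medians of -0.05, 0.01, 0.04 and -0.2. Of 5 dendritic cell genes 0 were called and 2 had such a p (median 0.29). Of 7 platelet genes Pf4 rose, of 7 adipocyte genes Cfd, of 6 endocardial genes Plvap and of 4 Schwann cell genes the myelin gene Pmp22 (1.23, adjusted p = 0.0135, lost without 4 of the 6 arrays).

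Because beads remove CD45-bearing cells before CD31 selection, the leukocyte arrays were set beside the called genes. These 4 arrays came from allografts, not isografts. Their medians lay higher and they may have been normalized apart, so a median shift of 0.325 was removed. Of the 256 higher genes, 130 (50.8%) were at least 2-fold higher in leukocytes than in the isografts with no overlap, against 10.6% of all genes. Another view puts leukocytes beside normal endothelium, where 164 of the 256 (64.1%) were at least 2-fold higher in leukocytes with no overlap, against 11.6% of all genes. In 89 of the 256 (34.8%) the leukocyte mean was below that of the isografts. The share of all genes was not computed for this measure. Removing the median shift itself places many genes below, so the 34.8% cannot be read as high or low. Of the 104 lower genes, 59 (56.7%) were at least 2-fold lower in leukocytes than in normal endothelium with no overlap, against 10.8% of all genes. The shares against normal endothelium use the same Lewis arrays as the calls, which can raise them above the share of all genes. The other shares use the isograft arrays of the calls, so none of these shares is independent of the calls. The part of remaining leukocytes in the day 3 differences was not tested.

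**Figure D3:**
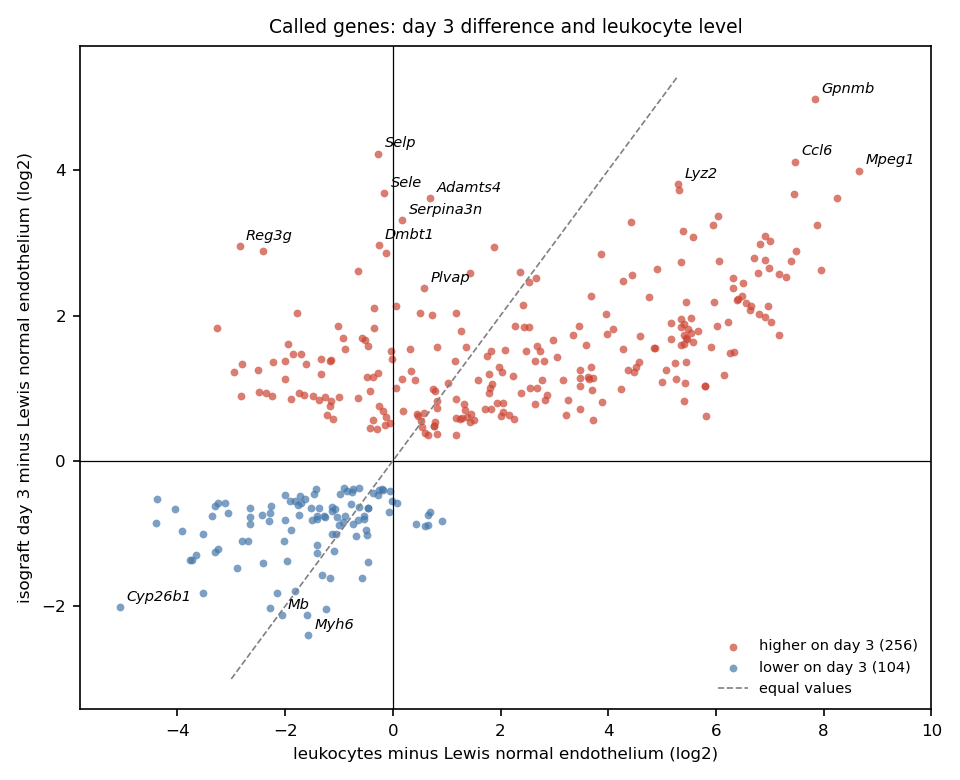
Each point is 1 of the 360 called genes; the vertical axis is isograft day 3 minus Lewis normal and the horizontal axis the mean of 4 leukocyte arrays minus Lewis normal, both in log2, with a dashed line where the values are equal. Both axes subtract the same Lewis arrays and so are not independent. Gpnmb, Mpeg1 and Ccl6 lie far to the right, whereas Selp, Sele, Adamts4 and Serpina3n lie close to 0 on the horizontal axis with day 3 differences of 4.23, 3.68, 3.61 and 3.31.

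Heart muscle genes led the falls. Of 22 cardiomyocyte markers 11 fell (50.0%, against 2.53% of all genes called) and 0 rose, with a median of -0.8. Myh6, the main myosin heavy chain of the rat heart, read 8.3, 8.64 and 7.44 in normal preparations and 5.39, 5.98 and 5.81 in isografts and fell by 2.4 (SE 0.40, adjusted p = 0.0018). Mb (myoglobin) read 8.84, 9.68 and 8.36 and 6.62, 7.09 and 6.81, and Tnni3 (troponin I) 8.36, 9.52 and 8.51 and 6.51, 7.13 and 6.7, in each case with Lewis replicate 2 the highest and no overlap. Tnnt2, Myl2, Fabp3 and Tnnc1, the genes of troponin T, a ventricular light chain, a fatty acid carrier and troponin C, followed with differences of -1.81, -1.79, -1.61 and -1.57. Cox8b, a muscle subunit of cytochrome oxidase and the only call among 27 respiratory chain genes (median 0.01), read 7.59, 9.15 and 7.21 and 5.66, 6.23 and 5.95. The mean of the 22 markers was 7.13, 7.77 and 7.06 in the Lewis arrays and 6.33, 6.56 and 6.43 in the isograft arrays. Without Lewis replicate 2 the count was 4 and the median -0.62, without isograft replicate 2 or 3 the count was 5, and Tnnt2, Myl2, Tnnc1 and Cox8b were also not called when the DA normal arrays joined the controls. The isograft means lay below those of the 3 Lewis arrays, but not below those of untransplanted DA hearts, which were 6.19, 6.46 and 6.73. In allografts of day 3 against those DA hearts the median of the list was -0.08. The part of muscle cell RNA in other falls was not tested.

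Other falls lay outside the cardiomyocyte list. Scn7a, a sodium channel gene, read 7.68, 6.55 and 6.41 in normal hearts and 4.73, 4.79 and 4.77 in isografts, which were nearly equal, and fell by 2.12 (SE 0.39, adjusted p = 0.00372). Cyp26b1, which degrades retinoic acid, fell from 10.19, 10.63 and 10.72 to 8.3, 8.57 and 8.64 (difference -2.01, SE 0.50, adjusted p = 0.0349). Its groups did not overlap, but the call was lost without any 1 of the 6 arrays. Aqp7, a water and glycerol channel of capillaries, read 9.48, 9.25 and 8.66 and 7.69, 7.2 and 7.03 (difference -1.82, SE 0.43, adjusted p = 0.027), and of the 6 arrays left out in turn, 4 removed the call, as did DA and Lewis normal arrays together as control. Qpct, a glutaminyl cyclase, read 8.95, 8.76 and 8.53 and 6.78, 7.15 and 7.46 (difference -1.61, SE 0.30, adjusted p = 0.00385). Rp1l1 and the serpin Serpinb7 fell by 1.48 (SE 0.18, adjusted p = 7.05e-05) and 1.41 (SE 0.19, adjusted p = 0.000123). Scn7a, Qpct, Rp1l1 and Serpinb7 kept their calls without any 1 array. Mylk, the light chain kinase, was the only call among 12 mural markers and fell by 0.72 (SE 0.11, adjusted p = 0.00108), from 11.21, 11.06 and 11.1 to 10.47, 10.38 and 10.37. Its dimmer probe set differed by -0.33, and Mylk was not called with that probe set or with the mean of both. Wt1, a factor of epicardium that cardiac endothelium can also express, read 10.98, 10.91 and 10.61 and 9.93, 9.77 and 9.92 and fell by 0.96 (SE 0.20, adjusted p = 0.0108), where the other 7 epicardial genes were not called. Wt1 lost its call without isograft replicate 2 or Lewis replicate 1 or 2.

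Lymphatic genes rose in 2 of 8 cases with a median of 1.11. Pdpn, a glycoprotein of lymphatic endothelium and fibroblasts, read 6.36, 5.72 and 7.83 in normal hearts and 9.24, 9.9 and 9.31 in isografts (difference 2.85, SE 0.46, adjusted p = 0.00135). Lyve1, the hyaluronan receptor of lymphatics and of some macrophages, read 7.96, 7.51 and 9.14 and 10.5, 11.13 and 10.37 (difference 2.46, SE 0.55, adjusted p = 0.0172), and lost its call without isograft replicate 2 or Lewis replicate 1 or 2. Prox1, the factor that fixes lymphatic identity, named after its value was seen, was not called at 1.1 (SE 0.45, adjusted p = 0.283). Lewis replicate 3 had the highest normal level of all 3, and without it the median of the list was 1.72. Leukocyte arrays read 10.49 for Pdpn, 10.73 for Lyve1 and 5.15 for Prox1.

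**Figure D4:**
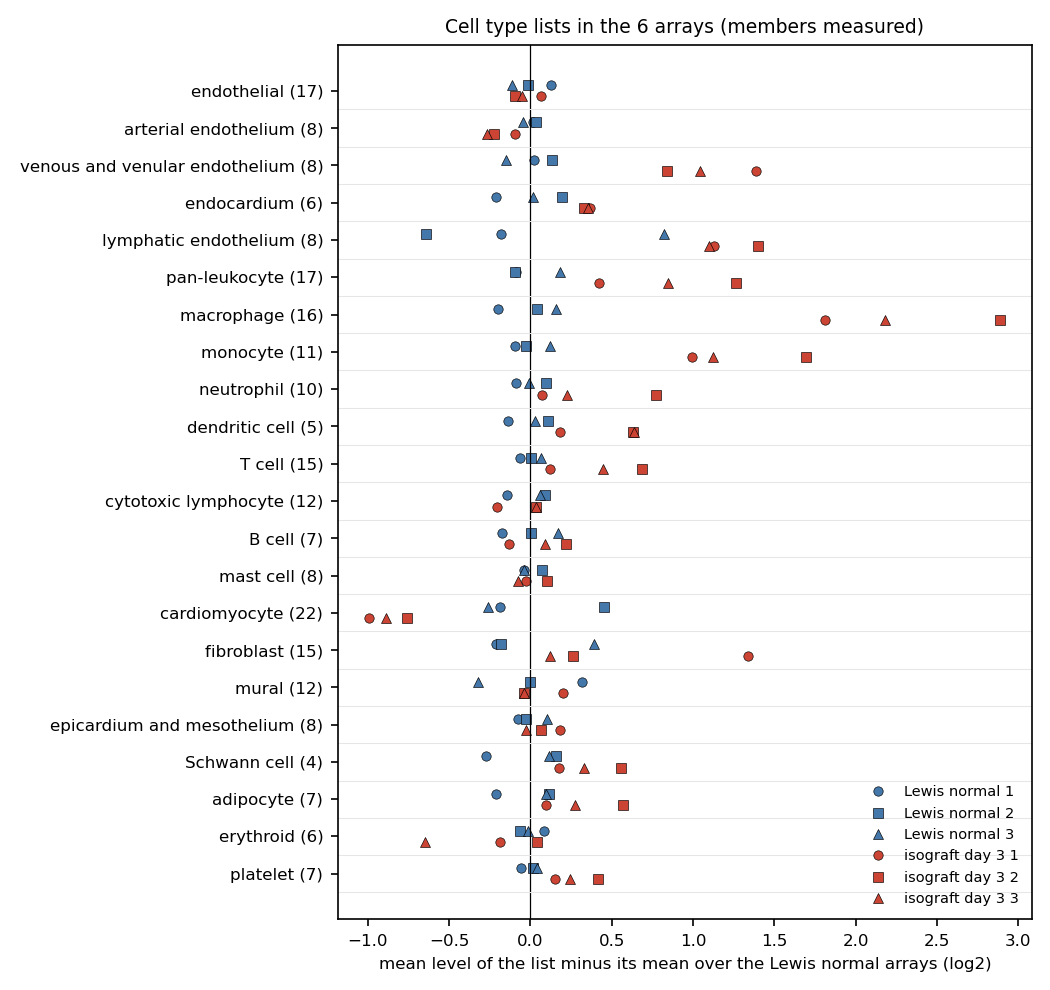
Mean log2 level of each cell type list in the 6 arrays, minus its mean over the 3 Lewis normal arrays; blue symbols are Lewis normal and red symbols isograft day 3, with circle, square and triangle for replicates 1, 2 and 3 and the number of measured members in brackets. The endothelial list stays near 0 in all 6 arrays, the macrophage list is shifted to the right in all 3 isografts with replicate 2 the farthest, and the cardiomyocyte list is shifted to the left.

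Day 3 was then set against the days before and after to see where it stood in time. With limma 0 of 14217 genes (0%) were called between isografts of day 3 and day 2, where 236 (1.66%) had an unadjusted p under 0.05, and 0 (0%) between day 4 and day 3, where 222 (1.56%) did. The lowest adjusted p was 1.0 for the first and 0.999 for the second. For the 256 genes higher on day 3 the median difference from day 2 was 0.21 and that of day 4 from day 3 was 0.06. For the 104 lower genes these medians were -0.12 and 0.12. The smallest p between days 2 and 3 belonged to C1qa, which read 6.65, 7.44 and 6.75 on day 2, 8.09, 9.08 and 8.36 on day 3 and 9.74, 9.39 and 9.74 on day 4. No array of 1 day overlapped with those of the next, and the differences were 1.56 (95% interval 0.87 to 2.25, unadjusted p = 0.000127) and 1.11 (0.43 to 1.8, unadjusted p = 0.00299). Because C1qa was picked by its p between days 2 and 3, the separation of those days is no further evidence. Fcgr2b read 4.87, 6.78 and 4.67 on day 2 and 7.31, 9.48 and 6.69 on day 3 (difference 2.39, 95% interval 1.2 to 3.58, unadjusted p = 0.000443). Isograft replicate 2 was the highest array on both days. C1qc differed by 1.17 between day 4 and day 3 (95% interval 0.44 to 1.91, unadjusted p = 0.00337) and the chemokine Ccl9 by 1.15 (0.45 to 1.84, unadjusted p = 0.00264). Other genes with the smallest p between days 2 and 3 were Hes2, a Hes family repressor (0.70, unadjusted p = 0.000678), and, downward, Madcam1 (-0.73, unadjusted p = 0.000168), Srrm2 (-0.43, 0.00232) and Arhgap32 (-0.55, 0.00231). Between days 3 and 4 they were, downward, Thrsp (-0.40, unadjusted p = 0.00252), Stum (-0.43, 0.0027) and Ptgs2os, annotated opposite Ptgs2 (-0.42, 0.00527). For Selp the interval of the difference between days 3 and 2 was -0.57 to 1.25 and between days 4 and 3 -1.3 to 0.52, so that a change of up to 1.25 on the log2 scale between days 2 and 3 lay within the error. The macrophage list had medians of 0.86 from day 2 to day 3 and 0.64 from day 3 to day 4, the largest of the 22 cell type lists in the first step, where all genes had 0.0 and 0.02.

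**Figure D5:**
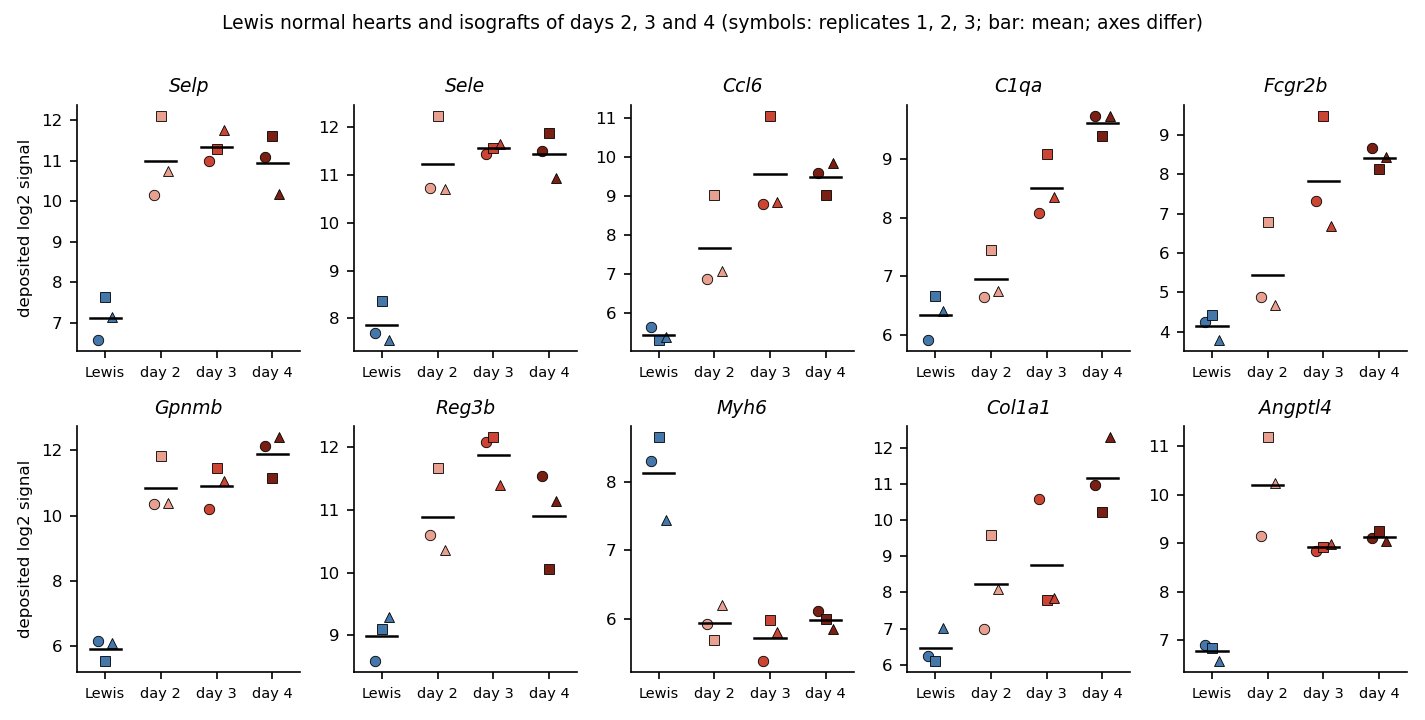
Deposited log2 signals of 10 genes in Lewis normal hearts (blue) and isografts of days 2, 3 and 4 (light to dark red); circle, square and triangle are replicates 1, 2 and 3, bars are means, and each panel has its own vertical axis. C1qa, picked for the smallest p between days 2 and 3, lies higher on each day than on the one before. Selp and Sele are already high on day 2, Myh6 is already low on day 2, and Angptl4 reads 8.84, 8.93 and 9 on day 3 after 9.14, 11.18 and 10.25 on day 2.

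The same day in mismatched grafts gave the last comparison, which asks whether the day 3 change depends on the graft type. DA allografts of day 3 against normal DA hearts had 324 calls (2.28%), 221 higher (1.55%) and 103 lower (0.724%). The test of the difference, the allograft change minus the isograft change with no array shared by both, called 0 of 14217 genes (0%) with limma. An unadjusted p under 0.05 was seen in 334 genes (2.35%), and the lowest adjusted p was 0.943. Genes with the smallest p were Sectm1b, Klrb1a and Pfkfb3 upward and Gart, Rgs16 and Epdr1 downward. Sectm1b differed from normal hearts by 0.16 in isografts and 1.97 in allografts (difference of changes 1.81, 95% interval 1.05 to 2.58, unadjusted p = 7.95e-05). Klrb1a, a receptor gene of natural killer cells, differed by 0.00 and 0.92 (0.92, 0.50 to 1.34, unadjusted p = 0.000174), and the glycolytic regulator Pfkfb3 by 0.05 and 1.7 (1.64, 0.87 to 2.42, unadjusted p = 0.000265). Gart, an enzyme of purine synthesis, rose in isografts by 0.47 (adjusted p = 0.0049) and read -0.09 in allografts (-0.56, -0.83 to -0.30, unadjusted p = 0.000243). Its other probe set differed by 0.28, and the Gart call was lost with the compared arrays alone, with either other choice of probe set (adjusted p up to 0.726) and at 0.22 with DA and Lewis normal arrays together as control. Rgs16, which slows G-protein signals, rose by 0.89 (adjusted p = 0.00239) against 0.10 (-0.79, unadjusted p = 0.00168), and Epdr1 by 1.16 (adjusted p = 0.0318) against -0.28 (-1.43, unadjusted p = 0.00186), where the Epdr1 call was lost without any 1 of the 6 arrays. Among the leading day 3 genes, Sele was higher by 3.68 in isografts and 1.85 in allografts (difference of changes -1.83, 95% interval -2.94 to -0.73), and Selp by 4.23 and 2.81 (-1.42, -2.7 to -0.13). Cxcl11 went the other way with 3.38 and 5.89 (2.51, 0.46 to 4.56). None of these 3 passed after adjustment. For Gpnmb the differences from normal were 4.98 and 4.36 (-0.61, -2.03 to 0.80). MHC class II genes had a median difference of changes of 1.6, against 0.0 over all genes. The medians were 0.97 for cytotoxic lymphocyte genes, 0.69 for cardiomyocyte genes, 0.75 for interferon-gamma-induced genes and -1.11 for lymphatic genes, where the 2 normal groups are of different strains.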

How the data were processed

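RNA of CD31-collected heart cells was hybridised to Rat 230 2.0 arrays, 1 array per sample. Deposited signals are in log2 units for each probe set; the authors made them with RMA and the affy package per the submitters' processing notes; versions and genome build are not given in the sources used here. RMA levels the arrays, so that a shift of all genes together would not show. Of 31099 probe sets, 20826 matched 1 gene through the platform annotation, 20758 of them with a gene identifier in RefSeq. Among the 20826, the probe set with the highest mean stood for each of 14217 genes. In R 4.3.3, limma 3.58.1 fitted a mean for each group over the 24 endothelial arrays (lmFit and eBayes, 16 residual degrees of freedom). Differences are on the log2 scale, p-values are Benjamini-Hochberg adjusted over 14217 genes, and an adjusted p under 0.05 is a call. Nothing in the labels pairs arrays beyond a replicate number. The SE and p-values rest on the spread between arrays within groups, pooled over all 24 endothelial arrays, allografts and DA hearts included. They can therefore differ from the scatter of the arrays printed for a gene. With the compared arrays alone, the SE of Angptl4 was 0.13 instead of 0.45, and that of Ackr1 0.33 instead of 0.30. There were 3 arrays per group, and their separate origin rests on the series' word. Leukocyte arrays entered no test. The code was tested on simulated data.

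The groups compared and the 33 process and 22 cell type lists were chosen with earlier results of these data known. Named genes are the 16 highest and 14 lowest calls, up to 5 largest differences per list, Pecam1 and Ptprc, and, for the other comparisons, the 3 smallest p-values in each direction; other genes are said to be named after their values were seen. Alternatives covered normalization, probe set choice, filters, the fitted arrays, weights, a replicate block and each array left out.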

Additional observations from a re-analysis of the deposited data

How the results depend on the processing

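Against 360 calls between isografts of day 3 and Lewis hearts, 562 were made with the compared arrays alone (296 shared), 571 with the 12 Lewis arrays (325 shared), 663 with DA and Lewis normal arrays together as control (327 shared) and 1591 with array weights, whose estimation stopped before it converged (359 shared). Requiring a 2-fold difference left 214 and an adjusted p under 0.01 left 155. Leaving out 1 array gave 150 to 300 calls, and counts under 240 came without isograft replicate 2 or 3 or Lewis replicate 1 or 2. The other normalization, prior, filter and probe set settings gave 328 to 424. The replicate block gave 433 (354 shared), and the other comparisons had 0 calls with it. Same-numbered arrays did not all deviate together (r = 0.43, 0.07 and -0.004 across genes), and only isograft replicate 1 correlated best with its own number. Elsewhere r was 0.28, 0.07 and -0.04 (isograft days 3 and 2), 0.48, 0.37 and -0.04 (days 4 and 3) and 0.32, 0.07 and 0.36 (day 3 allografts and DA hearts). The numbers were not taken as pairs, and a batch shared by number was not tested. Between days 3 and 2 array weights gave 2 calls and leaving out 1 array 0 to 1 (1 without isograft day 2 replicate 1); between days 4 and 3 each setting gave 0. The difference of changes had 3 calls with the compared arrays alone and 2 with array weights, and 0 in the other settings. Near-zero differences changed sign. Pecam1 read -0.10 with DA and Lewis normal arrays as control and from -0.15 to 0.30 when 1 array was left out. Klrb1a and Pfkfb3 read 0.052 and -0.17 with both strains as control, and Klrb1a 0.001 after quantile normalization and 0.011 with array weights. With 1 array left out they ranged from -0.041 to 0.04 and from -0.204 to 0.372. No other single gene's day 3 difference given above changed sign. The median changed sign in at least 1 setting for 17 of the 55 lists, whose medians lay between -0.15 and 0.13, and for 12 of them when 1 array was left out; among the medians given above these 12 hold those of type I interferon, unfolded protein, respiratory chain, B cell, mast cell and cytotoxic lymphocyte genes. Calls given above were also lost by Ptprc, Ptgs1, Pgf, Cry2, Ccl4, Bcl2a1, Cd163, Vcan and Fn1 with another choice of probe set or the mean of them, by Mef2c, Cry2 and Laptm5 with the compared arrays alone, by Laptm5, Bcl2a1 and Slc16a3 with the 12 Lewis arrays, by Hif1a and Socs3 with arrays centred on their medians and by Fn1 with the replicate block. Of genes given as not called, Icam1, Ccnd1, Kdr, Esm1, Gpihbp1, Edn1, Cxcl10 and Prox1 passed in 1 to 4 settings. Why the counts moved was not tested. With 3 arrays per group, the median SE of 0.165 limits what could be detected.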

Other observations

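Of the 256 genes higher on day 3, 61 were at least 2-fold lower in the leukocyte arrays than in the isografts with no overlap of arrays, as were 1453 of all 14217 genes. The same isograft arrays enter the calls and this comparison. Only 18 of the 61 stand in a list above, and the following were chosen after their values were seen. Dmbt1, which encodes a secreted scavenger protein of epithelia, read 7.72, 7.97 and 8.17 in Lewis hearts and 11, 10.72 and 11.04 in isografts, a difference of 2.97 (SE 0.25, limma adjusted p = 1.91e-06), with a leukocyte mean of 7.69. Fgf23, a hormone known from bone that lowers phosphate in the blood, read 4.83, 5.6 and 4.79 and 7.78, 7.74 and 8.29 (2.86, SE 0.38, limma adjusted p = 0.00013). Slco2a1, the carrier that clears prostaglandins, read 7.22, 7.54 and 7.47 and 10.38, 9.91 and 9.78 (2.61, SE 0.27, limma adjusted p = 9.32e-06), on the same day on which Ptgs2, which makes their precursor, was 3.73 higher. None of the isograft arrays overlapped with the normal ones for these 3 genes, as for all 256 higher genes. This follows largely from the call and is no further evidence.

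Further genes of this kind were Lbp, the plasma protein that hands endotoxin to Cd14 (2.03, from 7.21, 6.97 and 7.57 to 9.37, 9.26 and 9.22), the stress-induced nuclear protein gene Nupr1 (2.1, with isograft arrays at 9.07, 9.03 and 9.08) and the imprinted noncoding RNA H19 (1.82, from 10.41, 10.83 and 10.61 to 12.55, 12.41 and 12.36). The actin crosslinker Actn1 rose by 1.59 (SE 0.17, limma adjusted p = 1.21e-05) and the protease inhibitor Tfpi2 by 1.61 (SE 0.35, limma adjusted p = 0.0155). Without any 1 of the 6 arrays the other genes of these paragraphs kept their calls, but Tfpi2 lost it without 4 of them left out in turn. Leukocyte arrays do not speak to fibroblasts, pericytes or mesothelium, whose part in these values was not tested.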
